A study of Mus musculus with 6 samples.

Results

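The p53 pathway was followed through 10 genes in mouse squamous cell carcinoma (SCC) cells with and without focal adhesion kinase (FAK): Trp53, which encodes p53, its regulators Mdm2 and Cdkn2a, and 7 genes that p53 is known to switch on (Cdkn1a, Ccng1, Bax, Bbc3, Sesn2, Phlda3 and Gdf15). The genes were chosen by name and matched to the table by Ensembl identifier, and all 10 were among its 17204 genes. The study compared cells that lack FAK with cells that express it as part of its search for how FAK in the tumor cells raises the number of regulatory T cells in the tumor. SCC were induced chemically in K14CreER FAKflox/flox mice on the FVB background, where the keratin 14 promoter drives a Cre that tamoxifen activates, and a FAK-null clone was isolated from the cultured cells after tamoxifen treatment. SCC FAK-/- is that 1 clone, without FAK. SCC FAK-wt is the same clone after retroviral transduction with wild-type FAK, kept under hygromycin selection. Both lines therefore share the carcinogen-induced changes of 1 tumor cell and the deleted fak gene. They differ at least in FAK, in the retroviral infection with polybrene and its insertions and, as far as the study's methods tell, perhaps in hygromycin. The parts of these in a difference between the lines cannot be told apart. Each line gave 3 replicates of total RNA, and each replicate was run on its own Affymetrix GeneChip array of mouse genes.

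Values are log2 expression after Robust Multi-array Average (RMA) normalization by the authors, so that 1 unit is a 2-fold difference. The median over all genes was 5.90 to 5.97 on the 6 arrays. No replicate array was a copy of another, with a median absolute difference between replicates of 0.15 to 0.18. Arrays have no read depth, and their number limits the precision. The replicates are described as biological, without saying what separated the cultures, so each p-value refers to these arrays only. It sets a difference against the gene's spread between them, drawn toward the spread of all genes. Probes differ in how brightly they bind, so differences between the lines are read for 1 gene at a time and no gene is ranked against another by its level. Other identifiers were not paired with gene names here, so the fak gene, keratinocyte markers and further p53 targets were not analysed here.

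p53 is a transcription factor that accumulates when DNA is damaged or a cell is otherwise stressed, and it then raises genes that halt the cell cycle, repair DNA or start apoptosis. Mdm2 is both its target and its main inhibitor, a ubiquitin ligase that marks p53 for degradation, so the pair forms a feedback loop. p53 is regulated largely at the level of the protein, and a transcript of Trp53 says little by itself about its activity. In skin carcinogenesis of the mouse, Trp53 is often mutated during progression. The sources used here do not give its sequence in these cells.

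p53 binds DNA as a tetramer, and its full site is a pair of 10-base sequences known by the name of the p53 half-site consensus. To show where such sequences lie near these genes, the 250 bases before each RefSeq start (GRCm38.p6) were searched, with 15 windows for the 10 genes since some have several starts. The half-site consensus, whose reverse complement is itself a match, was found in 5 of the 15 windows, 1 each for Trp53, Mdm2, Cdkn1a, Ccng1 and Bax, and in 7.13% of all 32851 windows of the same length. The 5 windows are printed 5′ to 3′ on the strand of the gene, with each match in capitals.
Trp53, chr11:69580109-69580358, plus strand: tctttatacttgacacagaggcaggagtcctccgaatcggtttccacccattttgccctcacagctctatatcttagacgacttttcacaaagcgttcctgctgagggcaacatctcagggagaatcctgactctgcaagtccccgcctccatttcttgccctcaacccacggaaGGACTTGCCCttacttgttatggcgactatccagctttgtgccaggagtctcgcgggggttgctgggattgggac
Mdm2, chr10:117710759-117711008, minus strand: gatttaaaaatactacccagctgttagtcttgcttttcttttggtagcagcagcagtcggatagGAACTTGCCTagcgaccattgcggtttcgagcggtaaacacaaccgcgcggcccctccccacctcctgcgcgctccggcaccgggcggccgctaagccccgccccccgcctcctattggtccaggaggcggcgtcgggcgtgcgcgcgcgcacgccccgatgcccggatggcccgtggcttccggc
Cdkn1a, chr17:29090729-29090978, plus strand: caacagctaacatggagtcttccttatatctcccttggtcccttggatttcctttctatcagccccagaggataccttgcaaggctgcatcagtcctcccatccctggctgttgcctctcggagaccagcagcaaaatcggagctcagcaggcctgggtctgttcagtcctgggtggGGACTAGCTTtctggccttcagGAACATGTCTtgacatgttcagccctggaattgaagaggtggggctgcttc
Ccng1, chr11:40755287-40755536, minus strand: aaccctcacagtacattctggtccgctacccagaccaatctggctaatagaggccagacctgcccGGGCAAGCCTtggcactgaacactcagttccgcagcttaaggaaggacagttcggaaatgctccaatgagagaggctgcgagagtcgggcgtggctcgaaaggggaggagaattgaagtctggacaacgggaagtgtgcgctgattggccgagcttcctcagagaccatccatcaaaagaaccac
Bax, chr7:45466899-45467148, minus strand: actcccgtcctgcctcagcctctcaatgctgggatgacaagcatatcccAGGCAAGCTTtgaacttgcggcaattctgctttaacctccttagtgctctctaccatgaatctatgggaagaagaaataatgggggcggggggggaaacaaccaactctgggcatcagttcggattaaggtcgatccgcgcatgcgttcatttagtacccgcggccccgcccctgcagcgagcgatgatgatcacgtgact
The window of Cdkn1a, at the more upstream of its starts, held a pair of matches, GGACTAGCTT and GAACATGTCT, 73 and 51 bases before the start with 12 bases between them. A pair 0 to 13 bases apart, the spacing that p53 sites allow, was found in 0.0639% of all windows. Only exact matches were counted. The 10 bases directly after GAACATGTCT, tgacatgttc, miss the consensus at their first base alone and so are not in capitals. Which of these stretches pairs with GAACATGTCT in a p53 site was not tested. The single matches lay 75 bases before the start in Trp53 (GGACTTGCCC), 186 in Mdm2 (GAACTTGCCT), 185 in Ccng1 (GGGCAAGCCT) and 201 in Bax (AGGCAAGCTT). The 10 bases directly before the Ccng1 match, agacctgccc, also miss the consensus at 1 base alone and are not in capitals. Whether that stretch and the match together form a p53 site was not tested. No exact match was found in the windows of Cdkn2a, Bbc3, Sesn2, Phlda3 or Gdf15, which says only that these letters are not there. Many known p53 sites lie in introns or farther upstream, such as those in the first intron of Mdm2. The CCAAT box, searched as CCAAT on both strands, was found in 6 of the 15 windows and in 33.8% of all windows. GGGCGG, the core of sites for Sp factors, was found on either strand in 9 of the 15 and in 32.7% of all. TATAAA was found on either strand in 1 of the 15, that of Trp53, and in 12.4% of all. The motifs were searched separately, and none of their letter strings contains another. These matches are a description of the sequence, and binding was not measured.

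Cells that re-expressed FAK had 1.64-fold more Ccng1 mRNA and 1.31-fold more Mdm2 mRNA than the FAK-null cells, while their Bbc3 mRNA was lower, by 1.36-fold. The study's methods give a threshold of p under 0.01 without stating an adjustment, and it was applied here to the unadjusted p. The other 7 genes did not pass an unadjusted p under 0.01, and Trp53 itself differed by 0.06 log2 units. At this threshold 2 of the 10 genes were higher in SCC FAK-wt (limma, two-sided), where 3.19% of all 17204 genes were, and 1 of the 10 was lower, where 3.66% of all genes were, so that 3 of the 10 passed in either direction against 6.85% of all genes. After Benjamini-Hochberg adjustment over all genes, only Ccng1 of the 10 had an adjusted p under 0.05. Of all genes, 0.820% were higher and 1.10% lower at that level. The mean was higher in SCC FAK-wt for 9 of the 10 genes, against 53.3% of all genes. The median log2 difference was 0.21 over the 10 genes and 0.016 over all genes, and the median absolute log2 difference was 0.267 and 0.137. The 3 SCC FAK-wt values all lay above the 3 SCC FAK-/- values in 7 of the 10 genes, where 11.5% of all genes showed this, and all lay below in 1, Bbc3, where 10.0% of all genes did. All of the 10 but Phlda3 and Gdf15 had an SD, pooled over both lines, below the median of 0.17 over all genes. A low spread lets small differences separate the lines, and the shares of all genes are not matched for it. The 10 genes are targets or regulators of 1 factor, are not independent of each other, and were chosen with earlier results of these data known, so these shares describe them and are not a test. The plot of values by array shows each gene.

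**Figure D1:**
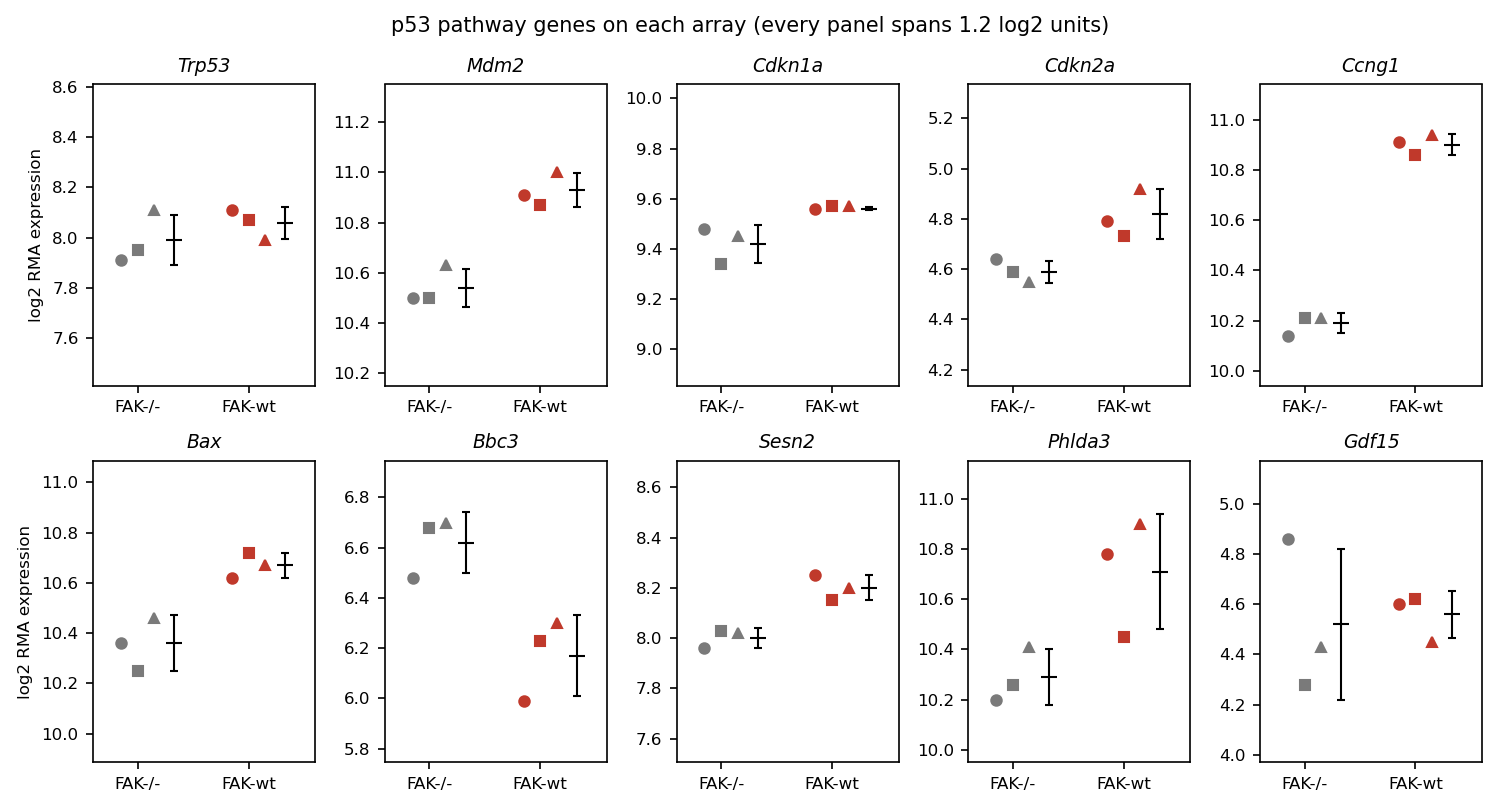
log2 RMA expression of the 10 p53 pathway genes on each array of SCC FAK-/- cells (grey) and SCC FAK-wt cells (red), with circles, squares and triangles for replicates 1, 2 and 3 and black bars for the mean ± SD of 3 arrays. Every panel spans 1.2 log2 units. Ccng1 shows the widest gap between the lines, 0.64, Bbc3 lies lower in SCC FAK-wt cells, and only Trp53 and Gdf15 overlap.

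Trp53 (ENSMUSG00000059552) showed no detectable difference between the lines. On the log2 scale, replicates 1, 2 and 3 read 8.11, 8.07 and 7.99 with FAK re-expressed and 7.91, 7.95 and 8.11 without FAK. The groups overlapped, with SCC FAK-/- replicate 3 at the level of the highest SCC FAK-wt array. The means were 8.06 ± 0.064 (SD, n = 3) and 7.99 ± 0.10 (SD, n = 3). The log2 difference of 0.06 had a 95% confidence interval from -0.18 to 0.31, which is 0.885-fold to 1.24-fold, so a change of Trp53 mRNA beyond that range in either direction lies outside the interval (limma, adjusted p = 0.839). The array reads the transcript and not the amount or the modification of the protein.

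Mdm2 (ENSMUSG00000020184), the inhibitor and target of p53, was higher in SCC FAK-wt cells. Its log2 values in replicates 1, 2 and 3 were 10.91, 10.87 and 11.00 in SCC FAK-wt, against 10.50, 10.50 and 10.63 in SCC FAK-/-. The lowest SCC FAK-wt array lay 0.24 above the highest SCC FAK-/- array. The means were 10.93 ± 0.069 (SD, n = 3) and 10.54 ± 0.076 (SD, n = 3), a log2 difference of 0.39 (standard error 0.099, 95% interval 0.15 to 0.62, limma adjusted p = 0.11). The difference was larger than the spread between replicates of either line and passed the unadjusted threshold, but the adjusted p was above 0.05. The call was lost when SCC FAK-wt replicate 1 or 3, or SCC FAK-/- replicate 1 or 2, was left out, with log2 differences of 0.40, 0.35, 0.36 and 0.36 in these fits.

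Cdkn2a (ENSMUSG00000044303) gives rise to p19Arf, which holds Mdm2 away from p53, and to the cyclin-dependent kinase inhibitor p16Ink4a, from separate first exons. The deposited gene value does not tell these transcripts apart. The SCC FAK-wt replicates had log2 values of 4.79, 4.73 and 4.92 and the SCC FAK-/- replicates 4.64, 4.59 and 4.55. The lines did not overlap, with a gap of 0.09, but the difference did not pass the test. The log2 difference was 0.22 (standard error 0.10, 95% interval -0.01 to 0.46, limma adjusted p = 0.349). Differences at low RMA values can be understated, depending on the background correction, and the size of this was not tested.

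Ccng1 (ENSMUSG00000020326) encodes cyclin G1, a p53 target that recruits protein phosphatase 2A to Mdm2 and so feeds back on p53. It had the largest difference of the 10 genes. With FAK the log2 values were 10.91, 10.86 and 10.94 in replicates 1, 2 and 3, and without FAK they were 10.14, 10.21 and 10.21. The arrays of each line lay close together and the gap between the lines was 0.64. The means were 10.90 ± 0.041 (SD, n = 3) and 10.19 ± 0.041 (SD, n = 3), a log2 difference of 0.71 (standard error 0.092, 95% interval 0.50 to 0.93, limma adjusted p = 0.014). This is 1.64-fold, with an interval from 1.41-fold to 1.90-fold. By p-value Ccng1 ranked 110 among the 17204 genes, and 3.81% of the genes had a larger absolute difference. The unadjusted p stayed under 0.01 whichever array was left out. The adjusted p was 0.0396 without SCC FAK-wt replicate 2 and rose above 0.05 without any other array, to 0.0541 and 0.0501 without SCC FAK-wt replicates 1 and 3 and to 0.0716, 0.0643 and 0.059 without SCC FAK-/- replicates 1, 2 and 3 (limma).

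Cdkn1a (ENSMUSG00000023067) encodes p21, the cyclin-dependent kinase inhibitor through which p53 halts the cell cycle. SCC FAK-wt replicates 1, 2 and 3 stood at 9.56, 9.57 and 9.57 on the log2 scale, and SCC FAK-/- replicates at 9.48, 9.34 and 9.45. The SCC FAK-wt arrays lay close together (SD 0.0065) and 0.07 above the highest SCC FAK-/- array. The log2 difference of 0.14 did not pass the test (standard error 0.094, 95% interval -0.08 to 0.36, limma adjusted p = 0.559). The interval runs from 0.946-fold to 1.28-fold. It does not meet the interval of Ccng1.

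**Figure D2:**
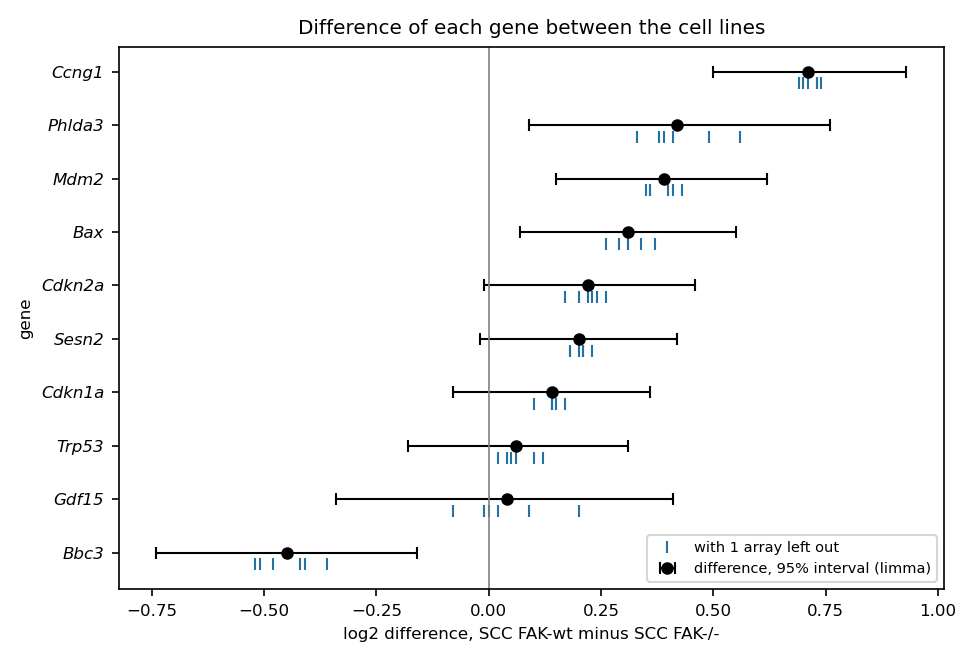
log2 difference of each gene, SCC FAK-wt minus SCC FAK-/-, with the 95% confidence interval from limma as black bars and the differences found with 1 of the 6 arrays left out as blue ticks. Ccng1 has the largest difference, 0.71, with an interval that overlaps those of Phlda3, Mdm2 and Bax, and the intervals of Cdkn2a, Sesn2, Cdkn1a, Trp53 and Gdf15 include 0.

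Bax (ENSMUSG00000003873) encodes the protein that opens the outer membrane of mitochondria in apoptosis. Replicates 1, 2 and 3 gave log2 values of 10.62, 10.72 and 10.67 for SCC FAK-wt and of 10.36, 10.25 and 10.46 for SCC FAK-/-. All SCC FAK-wt arrays lay above the SCC FAK-/- arrays, by at least 0.16. The log2 difference was 0.31 (standard error 0.10, 95% interval 0.07 to 0.55, limma adjusted p = 0.195) and did not pass the unadjusted threshold. It passed when the moderation of the variances was robust and followed a trend (limma adjusted p = 0.068).

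Bbc3 (ENSMUSG00000002083) encodes PUMA, a BH3-only protein that sets Bax free to act, and is among the strongest death-inducing targets of p53. It went the other way. The log2 values of its replicates were 5.99, 6.23 and 6.30 in SCC FAK-wt cells but 6.48, 6.68 and 6.70 in SCC FAK-/- cells, so that every SCC FAK-wt value was below every SCC FAK-/- value. The means were 6.17 ± 0.16 (SD, n = 3) and 6.62 ± 0.12 (SD, n = 3), a log2 difference of -0.45 (standard error 0.12, 95% interval -0.74 to -0.16, limma adjusted p = 0.131). The call at an unadjusted p under 0.01 was lost under 7 of the 12 alternatives that refit the data, against 5 for Mdm2 and 0 for Ccng1. Among these were the fits without SCC FAK-wt replicate 1 or 2 and without SCC FAK-/- replicate 2 or 3, with log2 differences of -0.36, -0.48, -0.42 and -0.41, and the fit with each array centered on its median, with -0.42.

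Phlda3 (ENSMUSG00000041801) encodes a pleckstrin-homology protein that competes with Akt for membrane lipids and thereby restrains Akt. In SCC FAK-wt the log2 values of replicates 1, 2 and 3 were 10.78, 10.45 and 10.90, and in SCC FAK-/- they were 10.20, 10.26 and 10.41. SCC FAK-wt replicate 2 lay only 0.04 above the highest SCC FAK-/- array, and the other SCC FAK-wt arrays were clearly higher. The log2 difference was 0.42 (standard error 0.14, 95% interval 0.09 to 0.76, limma adjusted p = 0.206) and did not pass. Without SCC FAK-wt replicate 2 it was 0.56 and passed the unadjusted threshold (limma adjusted p = 0.116). Phlda3 thus had a point estimate above that of Mdm2 but a wider spread, with a pooled SD of 0.18 against 0.072.

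Sesn2 and Gdf15 answer to p53 and also to other stress pathways. Sesn2 (ENSMUSG00000028893) encodes sestrin 2, a leucine sensor that restrains the growth kinase mTORC1. It read 8.25, 8.15 and 8.20 log2 units in the SCC FAK-wt replicates and 7.96, 8.03 and 8.02 in the SCC FAK-/- replicates. The lines were separated by 0.12, and the log2 difference of 0.20 did not pass the test (standard error 0.093, 95% interval -0.02 to 0.42, limma adjusted p = 0.361). It passed the unadjusted threshold without moderation of the variances, where each gene's own spread is used, with an adjusted p of 0.169 from the linear model over all genes.

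Gdf15 (ENSMUSG00000038508) encodes a secreted stress hormone of the TGF-β superfamily. The log2 values were 4.60, 4.62 and 4.45 with FAK and 4.86, 4.28 and 4.43 without it. The groups overlapped, and the SCC FAK-/- arrays held both the highest and the lowest value. The log2 difference was 0.04 (standard error 0.16, 95% interval -0.34 to 0.41, limma adjusted p = 0.948), an interval that runs from 0.789-fold to 1.33-fold. Without SCC FAK-/- replicate 1, the highest array, the log2 difference was 0.20, and without SCC FAK-/- replicate 2 it was -0.08, and neither fit passed the unadjusted threshold.

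**Figure D3:**
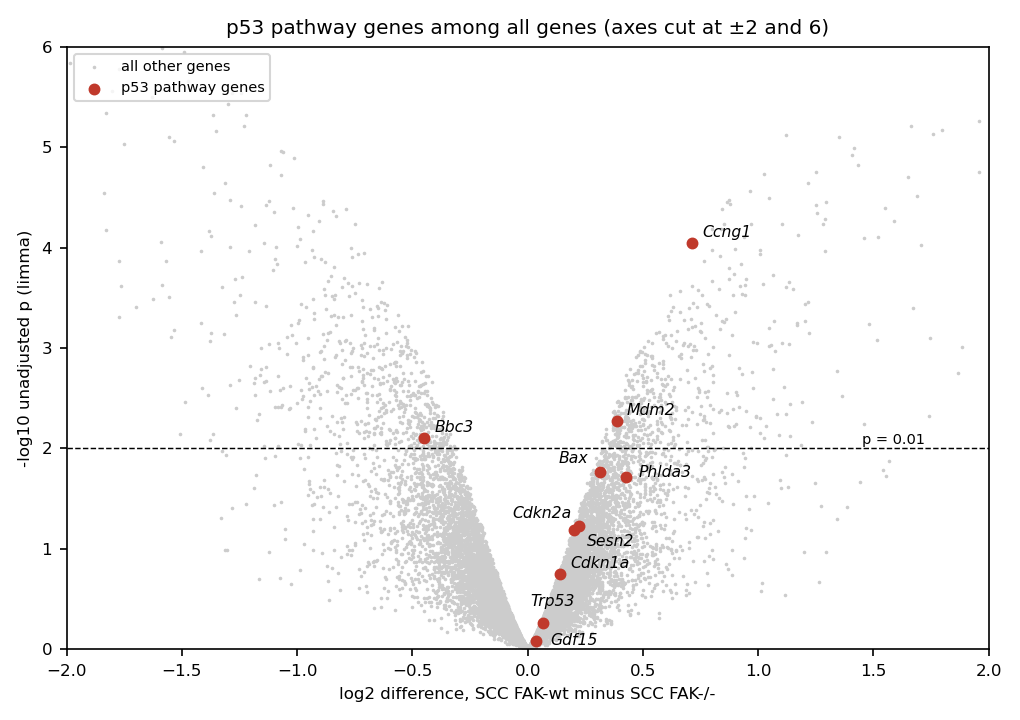
log2 difference, SCC FAK-wt minus SCC FAK-/-, against -log10 of the unadjusted limma p for all 17204 genes (grey) and the 10 p53 pathway genes (red), with 29 genes outside the axes. Ccng1, Mdm2 and Bbc3 lie above the dashed line at the unadjusted threshold of 0.01, and Bbc3 is the 1 gene of the 10 left of 0.

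Ratios of genes within an array do not depend on a shift of a whole array. They are given for 4 pairs, chosen after the values of the genes had been seen, as a description and with no test, since the differences above already set their direction. Only the change of such a ratio between the lines can be read, since its level depends on the probes.

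Bax and Bbc3 are both proapoptotic targets. Their log2 ratio, Bax over Bbc3, was 4.63, 4.49 and 4.37 in SCC FAK-wt replicates 1, 2 and 3 and 3.88, 3.57 and 3.76 in those of SCC FAK-/-. The groups did not overlap, and the ratio was higher by 0.76 log2 units in SCC FAK-wt cells (4.50 ± 0.13 against 3.74 ± 0.16, SD, n = 3 each). The ratio of Mdm2 to Trp53, inhibitor to factor, was 2.79, 2.80 and 3.02 with FAK and 2.59, 2.55 and 2.52 without FAK. It was higher by 0.32 log2 units in SCC FAK-wt cells without overlap.

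Ccng1 was also set against the other targets Mdm2 and Cdkn1a. Its ratio to Mdm2 was 0.01, -0.02 and -0.07 with FAK and -0.36, -0.29 and -0.42 without FAK, higher by 0.33 log2 units in SCC FAK-wt cells. Its ratio to Cdkn1a was 1.36, 1.29 and 1.37 with FAK and 0.66, 0.87 and 0.76 without FAK, higher by 0.57 log2 units. Neither pair overlapped between the lines.

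**Figure D4:**
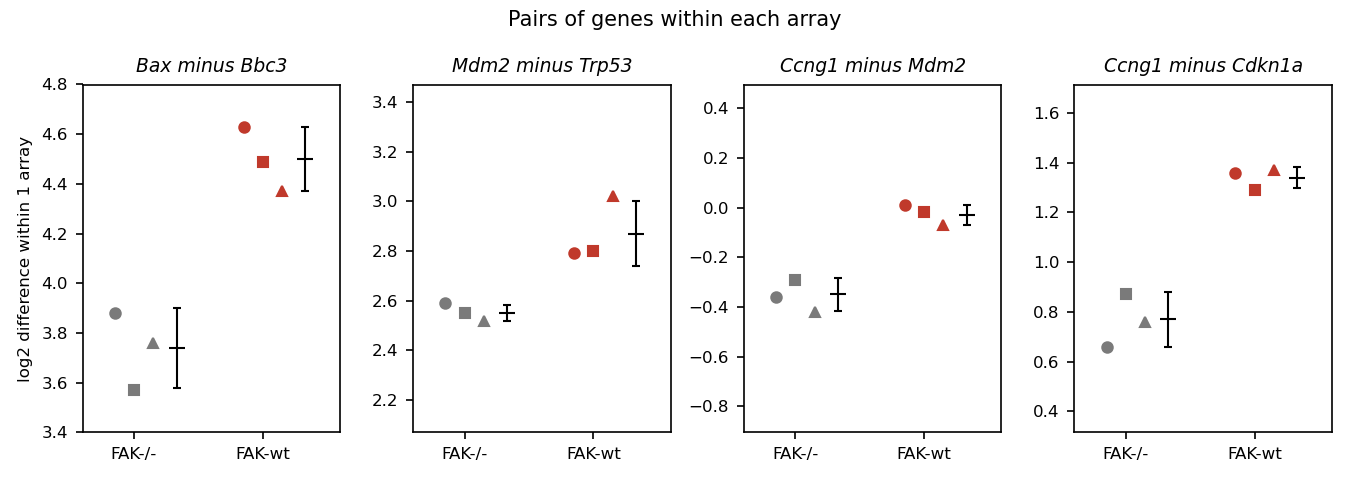
log2 difference between 2 genes within each array for 4 pairs chosen after their values were seen, in SCC FAK-/- cells (grey) and SCC FAK-wt cells (red), with circles, squares and triangles for replicates 1, 2 and 3 and black bars for the mean ± SD of 3 arrays. Every pair is higher on all SCC FAK-wt arrays, with a shift of 0.76 for Bax against Bbc3.

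The median deviation of the 10 genes from the mean of their line was -0.05 to 0.05 on the 6 arrays. These deviations are centered on 0 within each line by construction. Single genes deviated by up to 0.34, for Gdf15 on SCC FAK-/- replicate 1, and down to -0.26, for Phlda3 on SCC FAK-wt replicate 2.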

How the data were processed

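Gene expression was measured on 6 Affymetrix GeneChip mouse genome arrays, 3 of SCC FAK-wt and 3 of SCC FAK-/- cells, grouped by their labels. Per the labels and the study's methods, the authors used RMA in the affy package with probes grouped by Ensembl gene, which corrects background, equalizes the arrays' distributions and fits 1 value per gene. The deposited values were taken as log2 from their range (1.34 to 13.76). The sources used here do not settle the package version, how probes were mapped or which form of background correction RMA used. The form of that correction affects low values such as those of Cdkn2a and Gdf15. The lines were compared over all 17204 genes by moderated linear models (limma 3.58.1, R 4.3.3, two-sided, Benjamini-Hochberg adjustment), without a filter. On simulated data for this comparison, with 200 of 17204 genes changed by 1 log2 unit, the unadjusted threshold of 0.01 recovered 95% of the genes that were changed and 1.03% of those that were not. The differences of the 10 genes were smaller, at most 0.71 for Ccng1, and recovery at such sizes was not simulated. The members and lists were chosen with earlier results of these data known. All 10 genes are described whatever their values. Planned lists of other p53 regulators and targets, repressed genes, stress genes and cell type markers, and the fak gene Ptk2, could not be matched to identifiers with the tables used (0 identifiers in them) and are not analysed here. Alternatives were trend and robust moderation, no moderation, median centering, quantile normalization, a filter on genes with low means, the replicate number as a block, each array left out, and the adjusted threshold. Promoter sequences are from RefSeq (GRCm38.p6), matched by symbol for all 10 genes, with the 50 bases after each start left out.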

Additional observations from a re-analysis of the deposited data

How the results depend on the processing

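The sign of the difference was the same under all 13 alternatives for 9 of the 10 genes. It could change only with median centering, quantile normalization or an array left out. The other alternatives keep the log2 difference itself and change only the test. Gdf15, with a log2 difference of 0.04, turned to -0.08 without SCC FAK-/- replicate 2 and to -0.01 without SCC FAK-/- replicate 3, with -0.08 and 0.20 as the extremes when 1 array was dropped, and it is among the genes left out by the filter on dim genes. Ccng1 kept an unadjusted p under 0.01 throughout, with log2 differences of 0.68 to 0.75. At the unadjusted threshold of 0.01, the number of the 10 genes that were higher with FAK (2) was 4 with trend and robust moderation, where Bax and Phlda3 passed, 3 without moderation, 1 with a replicate block on the array number, and 1 at an adjusted p under 0.05. Of all 17204 genes, 549 were higher in the main fit and 659, 437, 416 and 141 under these alternatives, in the same order. The number of the 10 genes that were lower (1, Bbc3) was 0 with the trend and robust moderation, 0 without moderation, 0 with median centering, and 0 at an adjusted p under 0.05. Of all genes, 630 were lower in the main fit and 683, 423, 539 and 189 under these alternatives, in the same order. With each array left out in turn these counts were 1 to 3 higher and 0 to 1 lower. Quantile normalization and the filter on dim genes left both counts of the 10 genes as they were. Over all genes, 528 were higher and 674 lower with quantile normalization. Of the 11469 genes kept by the filter, 503 were higher and 565 lower. Under the block, Mdm2 no longer passed and Ccng1 had an adjusted p of 0.066 (limma), with fewer residual degrees of freedom. Deviations of same-numbered arrays correlated at -0.0338 to 0.028 across genes, so replicate numbers give no pairing. The cause of the other changes of call was not tested. Median centering moved the median log2 difference of all genes from 0.016 to 0.048. Signal over background, which the deposited values do not give, limits what can be said of Cdkn2a and Gdf15, whose values are low.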
